A study of Mus musculus with 4 samples.

Results

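The genes described here are 34 genes of neutrophils and of their formation: proteins of the primary, secondary and tertiary granules, stefins, genes of maturing neutrophils, and subunits of the NADPH oxidase. They were chosen by name, and the probes of each gene were found through the RefSeq accession that the array files give for a probe. Of the 34 genes, 32 had a probe on the array, among 20832 named genes in all, and 37 of the 39429 probes read them. Olfm4 and Ly6g were not matched to a probe and are not analysed here. Where a gene had several probes (5 genes), the brightest is given, and the values are log2 of its intensity over the 75th percentile of the array. Such a value was not compared between probes of different genes, because each probe has its own brightness.

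The arrays measured cells of bronchoalveolar lavage fluid (BALF, the wash of the air spaces). They came from mice given intraperitoneal injections of bleomycin, a cytostatic drug that causes lung fibrosis, at 0.035 U/g, with the cells taken at day 22. One group was wild-type (2 arrays) and the other S1pr2-/- (2 arrays), that is, without the receptor S1PR2 for the lipid mediator sphingosine-1-phosphate in every cell. Bleomycin was given to both groups, so no untreated array stands beside them, and the age of the mice was not in the array labels. The mutants came from a line with a disrupted S1pr2 gene on a mixed genetic background, with wild-type littermates as controls. Each array had its own RNA sample, and whether a sample pooled several mice was not given. The labels call the material alveolar macrophages, whereas the RNA was prepared from all BALF cells.

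Neutrophils are the short-lived granulocytes that reach inflamed airspaces first. Their granules are made one after another in the bone marrow: primary granules with serine proteases and myeloperoxidase in promyelocytes, then secondary granules with lactoferrin and cathelicidin, then tertiary granules. Mature cells in the lung carry the granule proteins but have shut down transcription of many of these genes, while macrophages share the lysozyme, oxidase and formyl peptide receptor genes with them. In a bulk sample, fewer cells of a type and less RNA per cell cannot be told apart.

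All arrays lay on 1 slide with 1 scan, with 75th percentiles between 2489 and 2817 intensity units. Tested were 27161 probes, those well above background on both arrays of a genotype or of both, with differences given throughout as S1pr2-/- minus wild-type. With only 2 arrays against 2 the precision is limited by the number of arrays. An exact permutation test (two-sided) has a smallest possible p of 0.333, a floor that does not apply to limma, the test used here. On simulated data of this size limma called 152 of 200 probes changed by a log2 of 2. Of 200 changed by 1 it called 71. The simulated noise was drawn independently for each probe and array, from the spread of that probe. On the real arrays limma called 0 probes lower and 0 higher, so the simulated rates do not carry over to them. The probe of S1pr2 itself went against the direction that loss of its transcript would give. Wild-type arrays gave log2 values of -0.13 and -0.16, and those labelled S1pr2-/- gave 2.67 and 2.54. Where this probe lies relative to the disrupted part of the gene was not tested. Every direction below therefore rests on the labels. The authors' quantitative PCR of BALF cells reported the rise of Alox15 under bleomycin as attenuated or abolished by S1pr2 deletion. By the labels Alox15 was also lower in S1pr2-/- here, with a log2 fold change of -4.83. Whether labels were exchanged was not tested. Macrophage genes were bright on all 4 arrays, with log2 values of Marco between 6.69 and 6.85, and of Itgax between 6.06 and 6.33.

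A few of these neutrophil genes had a much lower signal in S1pr2-/-, and none was called by the test. Padi4, the enzyme that citrullinates histones in neutrophils, was 27.8-fold lower, a fold that depends on the background correction and the probe. Its S1pr2-/- values lay near the floor of the scale. Pglyrp1, a bactericidal granule protein, was 3.79-fold lower, Stfa2l1, a stefin, 2.22-fold, and Slfn4, a Schlafen gene, 1.95-fold. The fold of Pglyrp1 was 1.89 without wild-type replicate 2 and 7.6 without wild-type replicate 1, and Stfa2l1 had no settled direction, with a log2 fold change of 0.15 under normexp on all spots. The proteases, the iron-binding proteins and the oxidase subunits differed less on these values, by up to 1.44-fold for Prtn3, but not under every setting. The log2 fold change of Prtn3 was -0.91 without wild-type replicate 2, that of Ltf was 0.99 without S1pr2-/- replicate 1, and normexp background correction of all spots gave 0.72 for Prtn3 and 0.90 for Ctsg. In 19 of the 31 genes tested the log2 fold change was within 0.2 of 0, where 70.9% of all probes were. Some of these 19 have wide intervals, such as Mpo and Hp, or lie at the floor of the scale, as Stfa1 does, so a value near 0 does not show that the genotypes were alike.

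None of the 31 genes was called by limma at an adjusted p under 0.05 (0 lower and 0 higher), and over all probes 0.00% were called lower and 0.00% higher. At an unadjusted p under 0.05, 4 of the 31 were lower (Padi4, Slfn4, Stfa2 and Hdc), where 5.59% of all probes were. On the same count 2 were higher (Lrg1 and Cybb), where 4.0% of all probes were. The methods' test, run in place of limma, left 2 lower and 1 higher at this threshold, and 0 after Benjamini-Hochberg adjustment. The shares of all probes given above are those of limma. The shares under the methods' test are not given, so its counts stand without them. Both arrays labelled S1pr2-/- lay below both wild-type arrays for 12 genes, where 21.7% of all probes did. For 5 genes they lay above, where 20.0% of all probes did, and for 14 genes the arrays overlapped. Past 2-fold there were 3 lower genes, where 1.24% of all probes were, and 0 higher, where 0.180% were. The median log2 fold change of the 31 genes was -0.07, beside 0.00 over all probes tested, and it was 0.04 beside 0.19 with normexp background correction of all spots. With that correction 6 genes were lower on both arrays, 2 were past 2-fold lower and 1 past 2-fold higher. The shares of all probes under that correction are not given, so these counts stand without them. In 12 genes the difference between genotypes was larger than both gaps between replicates, as it was in 28.7% of all probes.

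**Figure D1:**
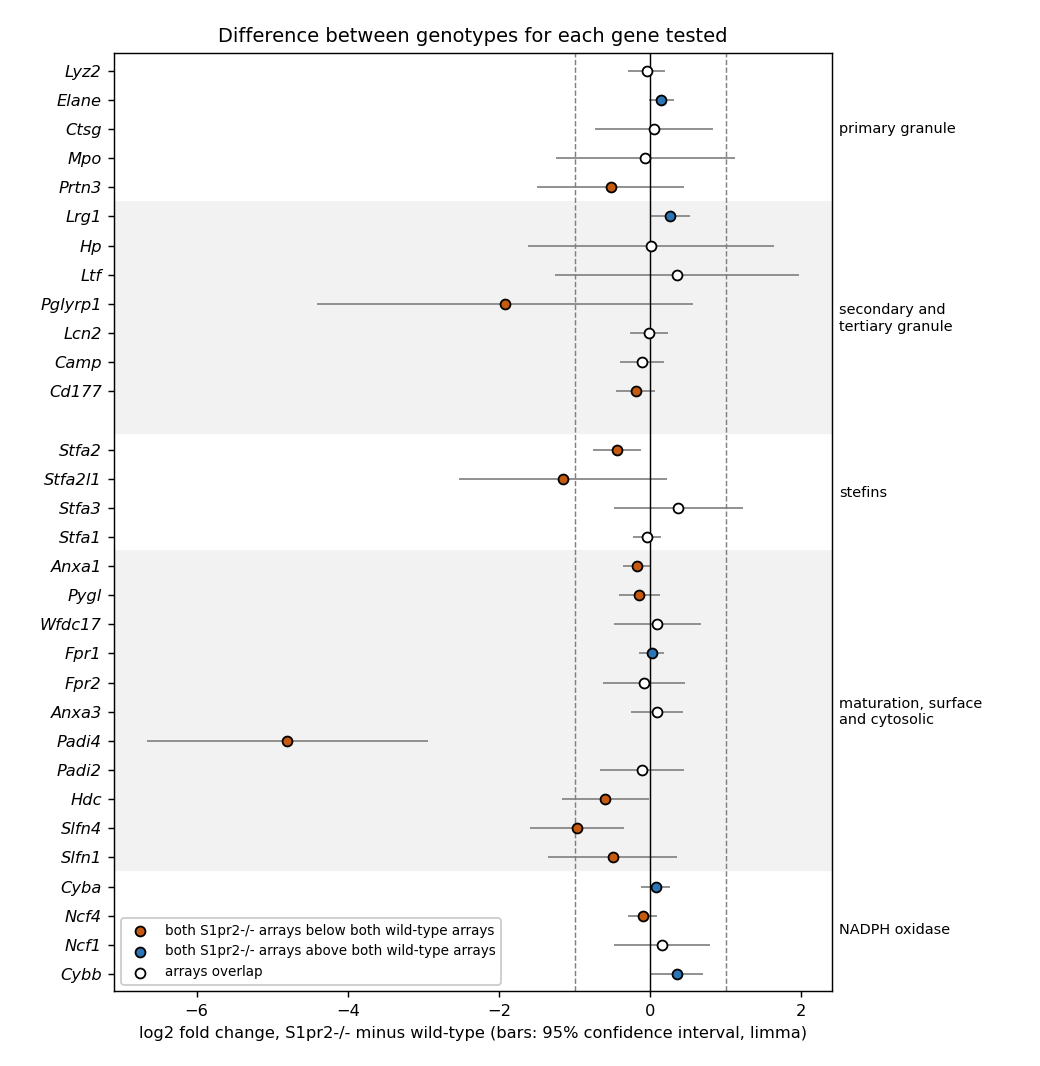
Log2 fold change (S1pr2-/- minus wild-type) of each of the 31 genes tested, by role; points are limma estimates from 2 arrays per genotype, bars their 95% confidence intervals, and dashed lines 2-fold. Orange points mark the 12 genes whose S1pr2-/- arrays were both below the wild-type arrays and blue points the 5 with both above; Padi4 at -4.80 stands far to the left of the other 30.

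The genes of the primary granule were measured by 5 probes, of which 1 was lower on both arrays labelled S1pr2-/- (21.7% of all probes), 1 higher (20.0%) and 3 overlapped. Elane, neutrophil elastase, had log2 values of 2.32 and 2.35 in wild-type and 2.49 and 2.47 in S1pr2-/-. The genotypes did not overlap, but the log2 fold change was small, at 0.15 (95% confidence interval -0.02 to 0.31, adjusted p = 0.539 from limma). Prtn3, proteinase 3, lay near the floor of the scale on all arrays, with -5.36 and -6.15 in wild-type and -6.17 and -6.39 in S1pr2-/-. Its log2 fold change was -0.52 (95% confidence interval -1.50 to 0.45), and it was 0.00 with the percentile over detected probes and 0.72 with normexp on all spots, so it has no settled direction. Elane and Prtn3 lie next to each other on chromosome 10, and neither was called.

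Mpo, myeloperoxidase, had -5.19 and -5.94 in wild-type and -5.30 and -5.96 in S1pr2-/-, all near the floor. The arrays with the same replicate number were closer to each other than those of 1 genotype, and the log2 fold change was -0.07 (95% confidence interval -1.25 to 1.12). Ctsg, cathepsin G, also near the floor, had -5.31 and -5.19 against -5.52 and -4.89, which overlapped (log2 fold change 0.05, 95% confidence interval -0.73 to 0.83). Lyz2, lysozyme, which macrophages also express, had 7.32 and 7.47 against 7.33 and 7.37. Its log2 fold change was -0.05 with a 95% confidence interval of -0.29 to 0.20.

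**Figure D2:**
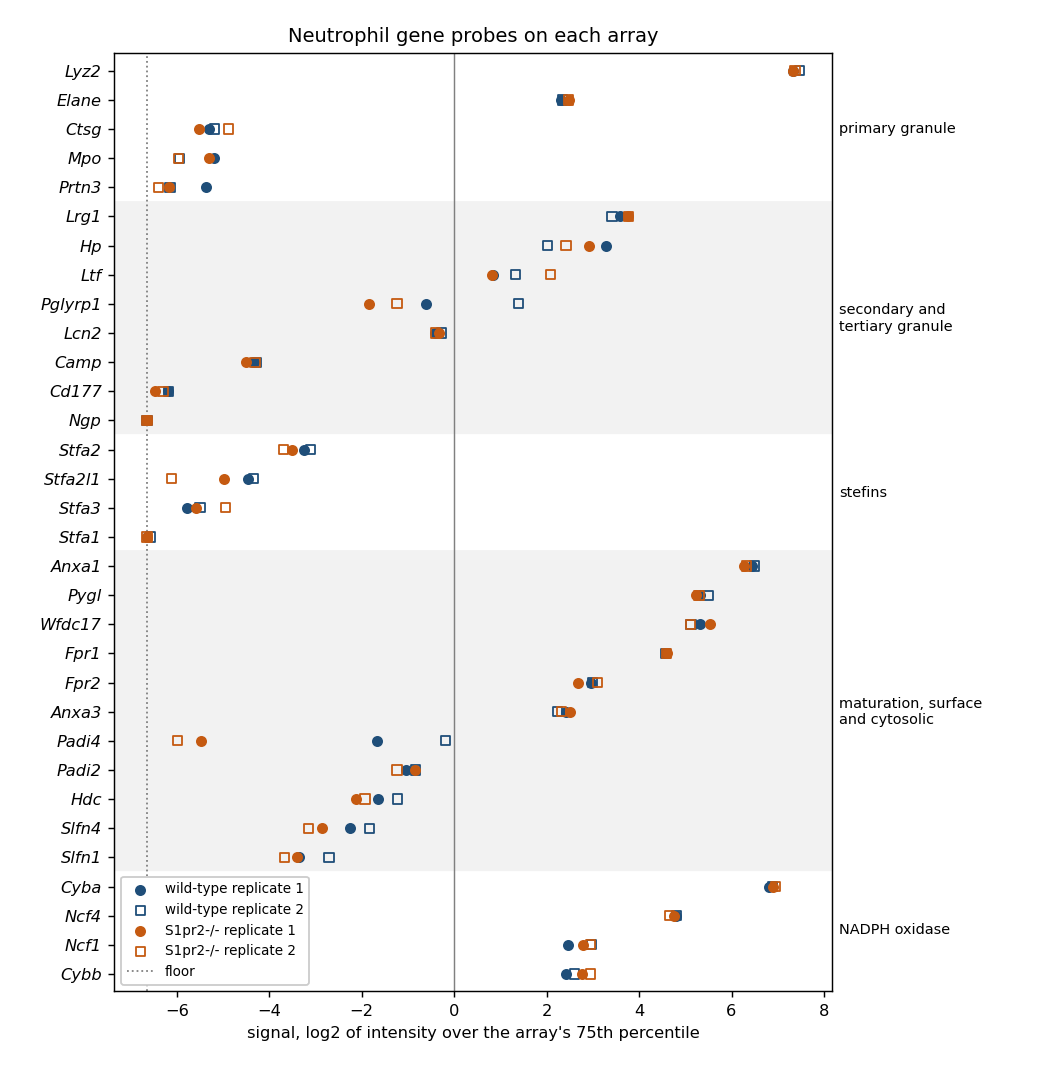
Signal of the 32 genes with a probe on each of the 4 arrays, as log2 of intensity over the array's 75th percentile; blue marks wild-type, orange S1pr2-/-, filled circles replicate 1 and open squares replicate 2. The 4 marks lie together for Elane, Fpr1 and Cyba among others, Padi4 has a wide gap between genotypes, and Pglyrp1 and Hp have wide gaps between the wild-type replicates; Ngp lies on the floor (dotted line).

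The promoters of Elane and Prtn3 are shown because these neighbouring genes encode serine proteases of the same granule. These are RefSeq sequences of the build GRCm38.p6, from 250 bases before to 50 bases after the start of each gene, on the strand of the gene, for Elane chr10:79886062-79886361 (plus strand) and for Prtn3 chr10:79879417-79879716 (plus strand). Capitals mark matches of GAGGAA, the core bound by the myeloid factor PU.1, on either strand.
Elane: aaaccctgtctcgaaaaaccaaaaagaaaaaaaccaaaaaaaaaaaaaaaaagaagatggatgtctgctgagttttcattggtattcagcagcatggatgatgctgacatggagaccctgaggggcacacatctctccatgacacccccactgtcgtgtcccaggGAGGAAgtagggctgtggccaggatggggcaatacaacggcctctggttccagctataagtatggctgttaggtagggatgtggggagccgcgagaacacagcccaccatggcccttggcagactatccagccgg
Prtn3: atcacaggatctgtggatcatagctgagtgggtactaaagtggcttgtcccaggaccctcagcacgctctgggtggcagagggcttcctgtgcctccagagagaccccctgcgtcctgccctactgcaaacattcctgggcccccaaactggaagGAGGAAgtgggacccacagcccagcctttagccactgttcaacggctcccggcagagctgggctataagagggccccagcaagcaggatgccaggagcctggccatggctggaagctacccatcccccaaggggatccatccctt
Each of these promoters holds 1 such match, which begins 85 bases before the start in Elane and 95 bases before it in Prtn3. The letters GAGGAA occurred on either strand in 18 of the 31 promoters found for the 34 genes (58.1%), and in 28.3% of all 32851 promoters of this length. A match is a description of the letters, not a site bound in these cells.

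Genes of the secondary and tertiary granules numbered 9, of which 7 were tested, with 2 lower on both arrays labelled S1pr2-/- (21.7% of all probes), 1 higher (20.0%) and 4 overlapping. Ltf, the iron-binding lactoferrin, had log2 values of 0.84 and 1.33 in wild-type and 0.81 and 2.08 in S1pr2-/-. The arrays labelled S1pr2-/- spanned both wild-type ones, and the log2 fold change of 0.36 (95% confidence interval -1.26 to 1.97) turned to -0.27 without S1pr2-/- replicate 2. Lcn2, the siderophore-binding lipocalin 2, had -0.42 and -0.28 against -0.33 and -0.40. Camp, the cathelicidin peptide, had -4.33 and -4.27 against -4.51 and -4.31. Its other probe gave a log2 fold change of 0.03 beside -0.11 here. Ngp, neutrophilic granule protein, was at the floor on all 4 arrays and not well above background on any, so it was not tested.

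Pglyrp1, a peptidoglycan recognition protein of the granules, had -0.61 and 1.39 in wild-type and -1.83 and -1.24 in S1pr2-/-. Both arrays labelled S1pr2-/- were below both wild-type arrays, and the wild-type arrays themselves lay 2.01 apart. The means were 0.39 ± 1.42 (SD, n = 2) and -1.54 ± 0.42 (SD, n = 2). The log2 fold change was -1.92 (standard error 0.82, 95% confidence interval -4.41 to 0.56, adjusted p = 0.555 from limma). Without wild-type replicate 2 the fold was 1.89, and without wild-type replicate 1 it was 7.60.

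Haptoglobin (Hp), which binds free hemoglobin, had 3.29 and 2.01 in wild-type and 2.91 and 2.42 in S1pr2-/-. The arrays labelled S1pr2-/- lay between the wild-type ones, with a log2 fold change of 0.01 (95% confidence interval -1.62 to 1.64). Lrg1, a leucine-rich glycoprotein, had 3.59 and 3.42 against 3.77 and 3.76, the higher values being those labelled S1pr2-/-. Its log2 fold change was 0.27 (95% confidence interval 0.01 to 0.53, adjusted p = 0.518 from limma). Cd177, a surface glycoprotein kept in these granules, had -6.20 and -6.18 against -6.47 and -6.30, close to the floor of -6.64. Its log2 fold change of -0.19 (95% confidence interval -0.45 to 0.07) was 0.98 with normexp on all spots.

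Among the 12 genes of citrullination, surface and cytosol in maturing neutrophils, 11 were tested, and 6 were lower on both arrays labelled S1pr2-/- (21.7% of all probes), 1 higher (20.0%) and 4 overlapping. Padi4 is the peptidylarginine deiminase that enters the nucleus of neutrophils and is needed for extracellular traps. It had -1.67 and -0.19 in wild-type and -5.47 and -5.98 in S1pr2-/-. The genotypes were far apart, and the wild-type arrays differed by 1.48, with replicate 2 the higher one. The means were -0.93 ± 1.04 (SD, n = 2) and -5.73 ± 0.36 (SD, n = 2). The log2 fold change was -4.80 (standard error 0.61, 95% confidence interval -6.66 to -2.94, adjusted p = 0.508 from limma), a signal 27.8-fold lower. The S1pr2-/- values, 2.25% and 1.58% of the 75th percentile, lay near the floor of the scale, so the size of this fold is uncertain. Leaving out 1 array in turn gave folds of 16.7 to 46.4. The log2 fold change was -2.82 with normexp on all spots, -3.70 with normexp without spots that carry a background flag (chosen after seeing the data) and -3.31 as the mean of its probes. The other probe of Padi4 had -5.04 and -3.82 against -6.07 and -6.42, in the same order and 3.51-fold lower. Padi2, a deiminase that macrophages also express, had -1.04 and -0.83 against -0.84 and -1.24, with no such gap (log2 fold change -0.10, 95% confidence interval -0.66 to 0.45). Of the remaining deiminases, Padi1 had a log2 fold change of 0.05 and Padi3 of 0.56, neither called by limma, and Padi6 was at the floor on all arrays.

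The Schlafen genes Slfn4 and Slfn1, neighbours on chromosome 11, are regulated during myeloid differentiation and activation. Slfn4 had -2.24 and -1.83 in wild-type and -2.86 and -3.15 in S1pr2-/-. Here the genotypes were separated by more than the replicates of either, and the log2 fold change was -0.97 (standard error 0.21, 95% confidence interval -1.59 to -0.34, adjusted p = 0.508 from limma). Slfn1 had -3.36 and -2.71 against -3.40 and -3.66. The first wild-type array almost met the S1pr2-/- arrays, and the log2 fold change was -0.50 (95% confidence interval -1.35 to 0.36), or 0.07 with normexp on all spots. Of 5 other Schlafen genes tested, 3 were lower on both arrays labelled S1pr2-/- (21.7% of all probes) and 2 overlapped, with a median log2 fold change of -0.20 and values from -0.28 (Slfn9) to 0.01 (Slfn5).

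Hdc, the enzyme that makes histamine, had -1.64 and -1.22 in wild-type and -2.12 and -1.93 in S1pr2-/-. Its arrays did not overlap, and the log2 fold change was -0.60 (95% confidence interval -1.17 to -0.02, adjusted p = 0.518 from limma). Hdc is also a gene of mast cells and basophils. Of the defining genes of those cells, Mcpt8, Cpa3, Ms4a2, Fcer1a and Cma1 were at the floor on all 4 arrays, and the 3 tested of 9 listed had a median log2 fold change of 0.13, with 1 lower on both arrays (21.7% of all probes), 1 higher (20.0%) and 1 overlapping.

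The surface receptors for formylated peptides, which guide neutrophils to bacteria and which macrophages share, had close values in both genotypes. Fpr1 had 4.59 and 4.57 against 4.61 and 4.59 (log2 fold change 0.02, 95% confidence interval -0.14 to 0.19). Fpr2 had 2.96 and 2.99 against 2.67 and 3.11, the S1pr2-/- arrays spanning the wild-type ones (log2 fold change -0.08, 95% confidence interval -0.63 to 0.46). The 3 other formyl peptide receptors tested had log2 fold changes between -0.13 and 0.05, all overlapping.

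Annexin A1 (Anxa1), a mediator that limits neutrophil entry, had 6.45 and 6.50 in wild-type and 6.28 and 6.33 in S1pr2-/-. The arrays did not overlap, at a log2 fold change of -0.18 (95% confidence interval -0.36 to 0.01), but they did on its other probe (-0.03). Anxa3, an annexin of neutrophil granule membranes, had 2.42 and 2.24 against 2.51 and 2.33 (log2 fold change 0.09). The 10 other annexins had a median log2 fold change of 0.04, with 1 lower on both arrays labelled S1pr2-/- (21.7% of all probes), 3 higher (20.0%) and 6 overlapping. Pygl, the glycogen phosphorylase of neutrophils and liver, had 5.32 and 5.49 against 5.23 and 5.29 (log2 fold change -0.14). Wfdc17, a small secreted protein with a whey acidic protein domain, had 5.32 and 5.12 against 5.53 and 5.11 (log2 fold change 0.10). In the wider list of protease inhibitors and such proteins, Slpi, the inhibitor of neutrophil elastase, had 6.48 and 6.50 against 6.19 and 5.94. The largest difference of that list was in Serpinb2, an inhibitor of plasminogen activators, with -1.47 and -0.38 against -5.41 and -5.34, and 3 of its 8 genes tested were lower on both arrays (21.7% of all probes), with a median log2 fold change of -0.07 and none higher (0 genes).

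The stefins are small inhibitors of cysteine proteases, several of which are abundant in mouse neutrophils. Stfa2l1 had -4.46 and -4.34 in wild-type and -4.98 and -6.12 in S1pr2-/-. Both arrays labelled S1pr2-/- were lower, but they lay 1.15 apart, and the log2 fold change was -1.15 (95% confidence interval -2.53 to 0.23, adjusted p = 0.542 from limma). Without S1pr2-/- replicate 2 the fold was 1.49, and with normexp on all spots the log2 fold change was 0.15. Stfa2 had -3.24 and -3.10 against -3.51 and -3.70, with no overlap (log2 fold change -0.44, 95% confidence interval -0.76 to -0.12, adjusted p = 0.508 from limma, and 0.17 with normexp on all spots). Its neighbour on chromosome 16, Stfa3, had -5.78 and -5.50 against -5.59 and -4.94, which overlapped near the floor. Stfa1 was at the floor on 3 arrays and at -6.56 on wild-type replicate 2, so these values have no order. The stefins resemble each other in sequence, and whether a probe reads only its own gene was not tested. Of 5 other stefins and cystatins tested, 2 were lower on both arrays labelled S1pr2-/- (21.7% of all probes), 2 higher (20.0%) and 1 overlapped, with a median log2 fold change of -0.27.

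The promoters of the genes with the largest differences are shown for comparison, from the same build and with the same window. Padi4 lies at chr4:140774154-140774453 (minus strand), Pglyrp1 at chr7:18884440-18884739 (plus strand), Stfa2l1 at chr16:36156561-36156860 (plus strand) and Slfn4 at chr11:83174936-83175235 (plus strand). Capitals mark GAGGAA (PU.1), AGATAA (the motif of GATA factors) and TTGCNNAA (the motif of C/EBP factors), each searched on both strands.
Padi4: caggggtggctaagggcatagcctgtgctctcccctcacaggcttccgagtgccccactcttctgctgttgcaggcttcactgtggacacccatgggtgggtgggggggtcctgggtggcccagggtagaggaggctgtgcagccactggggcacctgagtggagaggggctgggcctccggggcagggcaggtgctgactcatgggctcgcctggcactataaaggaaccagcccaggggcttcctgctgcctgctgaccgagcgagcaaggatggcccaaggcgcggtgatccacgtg
Pglyrp1: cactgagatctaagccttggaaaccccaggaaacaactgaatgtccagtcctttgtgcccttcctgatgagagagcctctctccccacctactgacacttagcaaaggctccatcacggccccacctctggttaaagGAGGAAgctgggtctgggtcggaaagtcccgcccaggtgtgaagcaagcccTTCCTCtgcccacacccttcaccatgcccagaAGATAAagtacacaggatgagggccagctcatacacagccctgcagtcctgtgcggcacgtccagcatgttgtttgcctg
Stfa2l1: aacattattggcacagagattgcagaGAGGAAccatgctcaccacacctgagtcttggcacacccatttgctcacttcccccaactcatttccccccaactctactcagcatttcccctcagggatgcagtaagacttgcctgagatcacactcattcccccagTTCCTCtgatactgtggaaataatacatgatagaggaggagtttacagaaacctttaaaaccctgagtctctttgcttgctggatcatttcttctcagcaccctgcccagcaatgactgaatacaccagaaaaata
Slfn4: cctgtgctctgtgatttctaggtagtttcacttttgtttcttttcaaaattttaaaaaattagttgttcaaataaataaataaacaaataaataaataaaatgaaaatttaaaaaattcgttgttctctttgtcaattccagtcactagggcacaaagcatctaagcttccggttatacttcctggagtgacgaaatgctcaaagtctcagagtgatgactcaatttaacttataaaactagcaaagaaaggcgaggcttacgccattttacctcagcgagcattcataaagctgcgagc
The windows of Padi4 and Slfn4 held none of the 3 motifs (0 matches), which says only that these letters are not in these windows. In Pglyrp1, AGATAA began 30 bases before the start, with GAGGAA at 113 bases and its reverse complement at 62. In Stfa2l1 GAGGAA began 224 bases and its reverse complement 86 bases before the start. AGATAA occurred in 7 of the 31 promoters (22.6%) and in 11.2% of all promoters. TTGCNNAA occurred in 6 (19.4%) and in 10.8% of all promoters. No match of one motif overlapped another in the sequences shown.

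The NADPH oxidase makes superoxide in phagosomes from a membrane pair of subunits, Cybb and Cyba, and cytosolic subunits that join it on activation. Cybb, the catalytic subunit gp91phox, had 2.42 and 2.60 in wild-type and 2.77 and 2.95 in S1pr2-/-. The arrays labelled S1pr2-/- were the higher ones without overlap, with a log2 fold change of 0.35 (95% confidence interval 0.01 to 0.70, adjusted p = 0.518 from limma). Its partner Cyba had 6.81 and 6.88 against 6.89 and 6.94 (log2 fold change 0.07, 95% confidence interval -0.12 to 0.27), and its other probe gave 0.23, also with the arrays labelled S1pr2-/- higher. The cytosolic Ncf1 (p47phox) had 2.47 and 2.96 against 2.80 and 2.95, which overlapped. Ncf4 (p40phox) had 4.79 and 4.82 against 4.75 and 4.67, lower without overlap at a log2 fold change of -0.10 (95% confidence interval -0.29 to 0.09). The 4 subunits thus had small differences of both signs, with a median log2 fold change of 0.11.

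Of 12 other subunits and regulators of the oxidase, 3 were lower on both arrays labelled S1pr2-/- (21.7% of all probes), 2 higher (20.0%) and 7 overlapped, and their median log2 fold change was 0.01. Among them, Vav3, an exchange factor for Rac, had a log2 fold change of 0.21, and Arhgdib one of -0.17. None of them was called by limma (0 genes, and 0 at an unadjusted p under 0.05).

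A list of 30 other neutrophil genes was read beside these 31. Of the 27 tested, 15 were lower on both arrays labelled S1pr2-/- (21.7% of all probes), 3 were higher (20.0% of all probes) and 9 overlapped. Past 2-fold, 8 were lower (1.24% of all probes) and 0 higher (0.180%). The median log2 fold change was -0.33, beside 0.00 over all probes. limma called 0 of them, and at an unadjusted p under 0.05 7 were lower (5.59% of all probes) and 1 higher (4.0%). The largest differences were in Retnlg, a resistin-like protein, at -4.81, in Cebpe, the factor that drives secondary granule genes, at -4.37, and in Mmp25, a membrane metalloproteinase, at -1.82. Cebpe had 1.89 and 3.59 in wild-type and -1.80 and -1.45 in S1pr2-/-. Of the abundant cytosolic pair, S100a8 had 3.91 and 3.73 against 4.29 and 3.85, and S100a9 3.50 and 3.74 against 3.15 and 1.16. S100a8 overlapped, and the low value of S100a9 was that of S1pr2-/- replicate 2. The receptor for the neutrophil growth factor G-CSF, Csf3r, had 5.60 and 5.47 against 5.20 and 5.30, and the chemokine receptor Cxcr2 0.30 and 0.36 against -0.15 and -0.37. Mmp8, neutrophil collagenase, had 0.75 and 0.61 against 0.15 and 0.58. Higher on both arrays labelled S1pr2-/- were the chemokine receptor Cxcr1 (log2 fold change 0.43), Gca (0.27) and Selplg (0.12).

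The gap between the wild-type arrays moved with several of these results. Of the 31 genes tested, 24 were higher on wild-type replicate 2 than on replicate 1, as were 43.9% of all probes tested. Of the 12 genes lower without overlap, 11 were higher on that array, Prtn3 being the exception.

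Eosinophil genes moved with Padi4, Pglyrp1 and Slfn4 on the same arrays. Of 9 eosinophil genes, 8 were tested and 8 were lower on both arrays labelled S1pr2-/- (21.7% of all probes), 6 of them past 2-fold (1.24% of all probes), with a median log2 fold change of -4.50. Gata1 had -1.13 and 0.41 against -6.45 and -5.44, Prg2, the major basic protein, -0.07 and 1.69 against -5.04 and -3.99, and Alox15 -1.81 and 0.15 against -6.42 and -4.89. Each of these, and also Epx, Ccr3 and Il5ra, was higher on wild-type replicate 2 than on replicate 1, as Padi4 and Pglyrp1 were. The summed level of the list, in multiples of the 75th percentile, was 44.5 and 54.6 in wild-type and 35.6 and 40.2 in S1pr2-/-. Most of that sum came from Siglecf, which alveolar macrophages share, with a log2 fold change of -0.15. Epx was at the floor on S1pr2-/- replicate 1, and Prg3 was at the floor on 3 arrays and just above it on wild-type replicate 2. The part of eosinophils in the values of Padi4, Pglyrp1, Slfn4 and Cebpe was not tested.

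**Figure D3:**
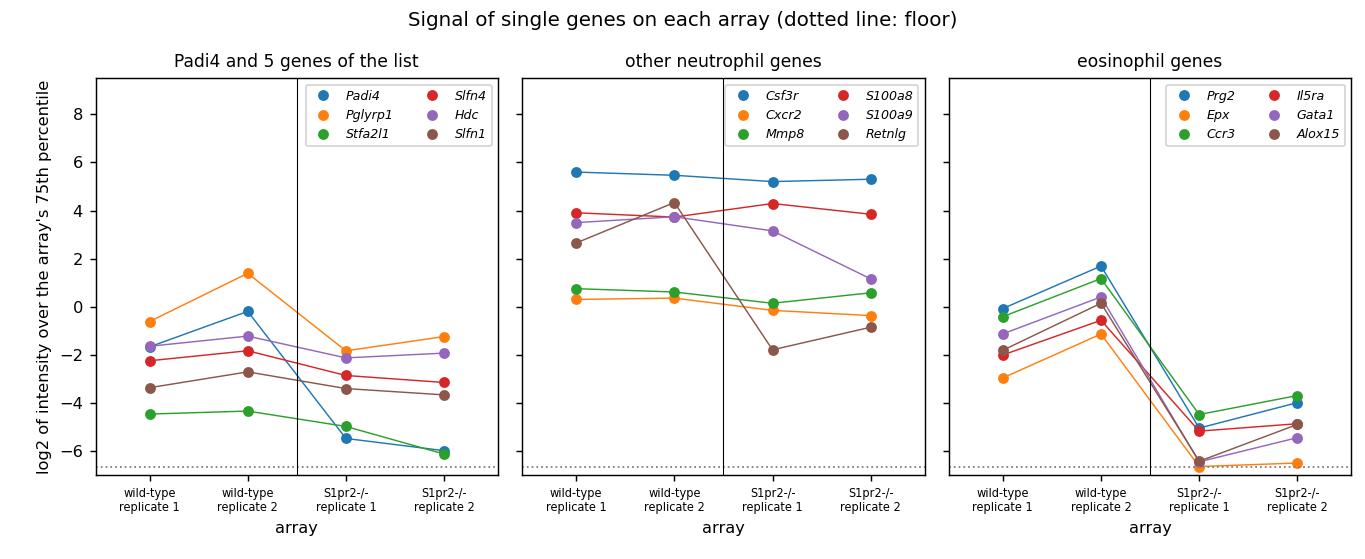
Log2 signal on each array for 6 genes of the list (left), 6 other neutrophil genes (middle) and 6 eosinophil genes (right); thin lines join the values of 1 gene and have no meaning as an order. Padi4, Retnlg and the eosinophil genes are high on wild-type replicate 2, somewhat lower on wild-type replicate 1 and far lower on both S1pr2-/- arrays. Csf3r (log2 fold change -0.28), Mmp8 (-0.32), Cxcr2 (-0.59) and S100a9 (-1.46) differ less. They too are lower on both S1pr2-/- arrays, as are 21.7% of all probes, and S100a8 (0.25) overlaps.

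The medians of the other cell lists lay closer to 0 than that of the eosinophil genes. Over all probes, 21.7% were lower and 20.0% higher without overlap, to be read beside the counts that follow. The 12 alveolar macrophage genes had a median log2 fold change of -0.02 (2 lower on both arrays labelled S1pr2-/-, 3 higher, 7 overlapping) and the 11 monocyte and monocyte-derived macrophage genes one of 0.39 (1 lower, 4 higher, 6 overlapping). The 8 T cell genes had a median of -0.43 (5 lower, 0 higher, 3 overlapping), the 5 B cell genes -0.72 (all 5 overlapping) and the 5 NK cell genes 0.02 (1 lower, 4 overlapping). The 5 erythroid genes had a median of 0.40 (3 higher, 2 overlapping) and the 8 epithelial genes -0.36 (6 lower, 2 overlapping). The part of these cells in the values of the neutrophil genes was not tested.

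**Figure D4:**
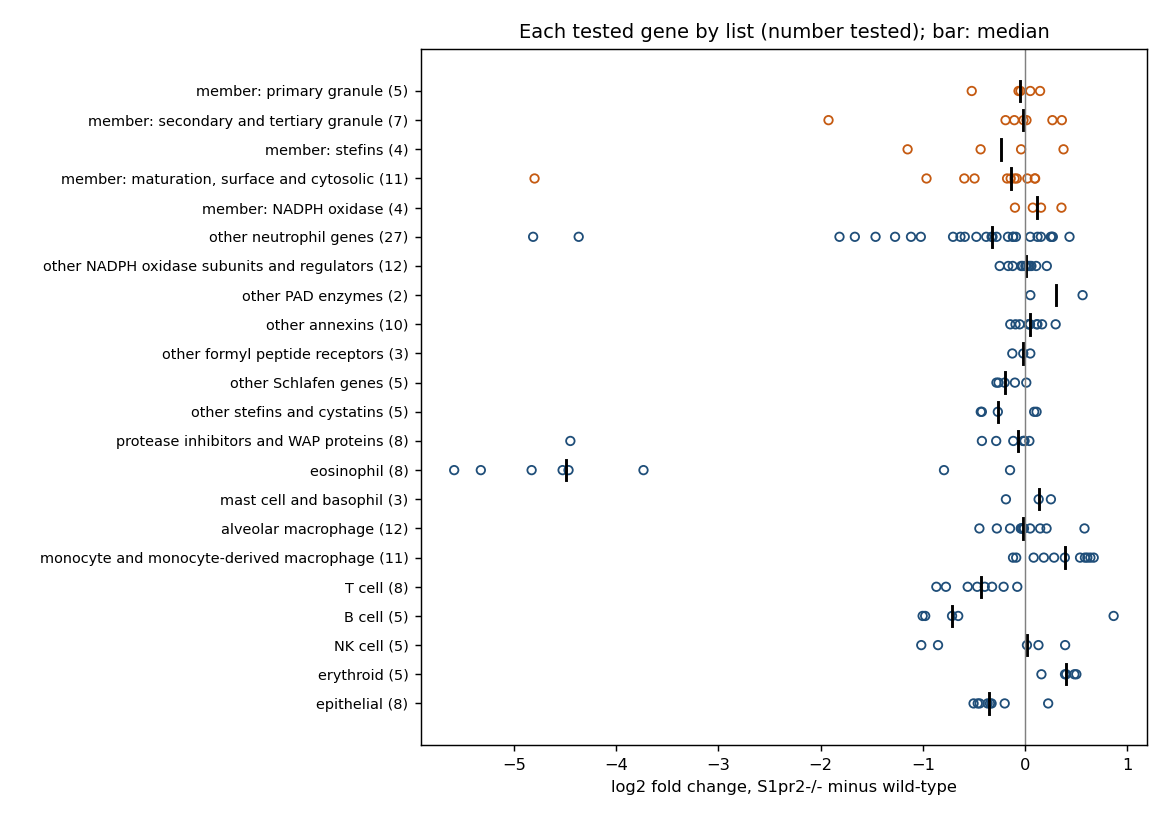
Log2 fold change (S1pr2-/- minus wild-type) of every gene tested, by list, with the number tested in brackets and a bar at the median; orange circles are the 31 genes described here and blue circles the lists read beside them. The eosinophil list (median -4.50) stands apart to the left, the medians of the 31 genes by role lie between -0.24 and 0.11, and the other neutrophil genes are spread to the left, with a median of -0.33.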

How the data were processed

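One-color Agilent arrays of a whole mouse genome design were read from BALF cells, 2 per genotype. The authors deposited the Feature Extraction output of each array, whose processed intensity per spot is corrected for background. The file headers name version 11.0.1.1, the submitters' notes and the methods 10.7.3.1. The authors also deposited a table of log2 values, which equals log2 of the processed signal over the 75th percentile, centred on the wild-type arrays, within 0.01 for 99.6% of probes; its column medians lie between -0.06 and 0.02. The Lowess step that the methods list leaves no trace in it. It served as an alternative only.

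Each intensity was divided by the 75th percentile of non-control spots on its array, set to at least 0.01 (the floor, -6.64 in log2), and log2 was taken. Outlier spots (115 to 273 per array) were left out, no spot was saturated (0), and spots of a probe were averaged. On each array 67.6% to 72.2% of probes exceeded background well. Accessions were matched to RefSeq of GRCm38.p6 (69.6% of 39429 probes; the design uses another build). limma 3.58.1 in R 4.3.3 (lmFit, eBayes) was run on 27161 probes with Benjamini-Hochberg adjustment over all of them, and the code was tested on simulated data. The methods call the RNA samples of each genotype independent, without saying whether they came from separate mice. The p-values therefore measure the spread between these samples only.

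Every gene of the list is named, and of the other neutrophil genes also those higher on both arrays. Of the lists read gene by gene, the 3 with the largest differences and those that define a cell type are named. One such gene is left unreported. The genes and lists were chosen with earlier results of these data known. No per-sample column was left unused. Alternatives are given in the closing section.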

Additional observations from a re-analysis of the deposited data

How the results depend on the processing

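None of the 31 genes was called (0 lower and 0 higher) under any of the 17 alternatives, which include the methods' t-test in place of limma. The smallest adjusted p was 0.345 (limma). Of 526 values of single genes, 34 changed sign, in 19 genes, and 12 genes kept their sign throughout, Padi4, Pglyrp1, Slfn4 and Hdc among them. Normexp on all spots gave 6 genes lower on both arrays and 1 past 2-fold higher, and log2 fold changes of 0.76 for Mpo, 0.72 for Prtn3, 0.057 for Lcn2, 0.64 for Camp, 0.98 for Cd177, 0.97 for Stfa1, 0.17 for Stfa2, 0.15 for Stfa2l1, -0.085 for Hp, -0.066 for Fpr1, 0.066 for Slfn1, -0.020 for Cyba and -0.024 for Wfdc17. On S1pr2-/- replicate 1, 6 spots lie below their background, all 6 with a background flag. Normexp without flagged backgrounds, an alternative chosen after seeing the data, left only Ctsg (-0.049) and Lcn2 (0.026) with another sign. Quantile normalization gave 0.052 for Mpo, 0.012 for Camp and 0.034 for Lyz2. The cause of these changes was not tested, and the shares of all probes under normexp are not given here.

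The log2 fold change of Stfa2l1, -1.15, was -0.72 with the percentile over detected probes and -0.67 under normexp without flagged backgrounds. With 1 array fewer the genotypes overlap less often by construction, and the share of all probes is not given for that case. Leaving out each array in turn gave 14 to 18 genes lower on the arrays labelled S1pr2-/- and 7 to 9 higher. These counts are not comparable with the 12 and 5 of all arrays. Past 2-fold lower there were 2 to 4 when an array was left out, against 3. The log2 fold changes then ranged from -0.44 to 0.31 for Mpo, -0.26 to 0.36 for Ctsg, -0.092 to 0.40 for Ncf1, -0.090 to 0.057 for Lcn2, -0.30 to 0.094 for Padi2, -0.63 to 0.65 for Hp, -0.12 to 0.027 for Lyz2, -0.11 to 0.31 for Wfdc17, -0.30 to 0.14 for Fpr2 and -0.27 to 0.99 for Ltf, the lone array of a genotype being assumed to vary like the others.

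The labels give same-numbered arrays only a number in common, and whether they were paired was not given. The correlation between their deviations was 0.187 over the probes tested. With 2 arrays per genotype the deviations of the replicates mirror each other. Both pairs therefore give the same value, which cannot settle a pairing. With the replicate block 0 genes were called. A block leaves the array values and fold changes as they are. The counts of 12 lower and 5 higher on both arrays, and of 3 past 2-fold lower, therefore could not change.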
